A study of Mus musculus with 10 samples.

Results

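The interferon pathway was followed through 45 genes of a table of 56748, covering the receptors for type I and type II interferon, the transcription factors that act below them, cytoplasmic RNA sensors and the interferon-stimulated genes. The genes were chosen by symbol and fall into 6 roles: 4 receptor subunits, 7 transcription factors, 2 RNA sensors, 16 antiviral effectors of the IFIT, OAS, MX, IFITM and related families, 10 genes of the ISG15 system with PARP and other induced genes, and 6 interferon-inducible GTPases. All 45 were in the table, and all 45 passed the filter on low counts that 14270 genes passed.

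The data came from primary adipocytes, fat cells grown in culture from the stromal vascular fraction of inguinal white fat. Donor mice were males aged 6 to 8 weeks, and the cells were differentiated for 6 to 8 days with dexamethasone, isobutylmethylxanthine, insulin and rosiglitazone. Control adipocytes carried the floxed Fam20c allele without Cre (genotype label Fam20c-flox), and KO adipocytes carried the same allele with Cre under the Adiponectin promoter (Fam20c-flox/Adipoq-Cre), so that both groups shared the floxed allele and the differentiation treatment and differed in the Cre transgene. Fam20c encodes a secretory-pathway kinase. Each group had 5 RNA-seq libraries with 18949106 to 26237825 counts each. The Adiponectin promoter is active in mature adipocytes, so that progenitors and other cells in such a culture keep Fam20c. The labels of neither group name an interferon or a virus as a treatment.

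Interferons are secreted signalling proteins. Type I interferons are released when cells sense foreign or misplaced nucleic acid, bind the receptor made of IFNAR1 and IFNAR2 and act mainly through a complex that contains STAT2 and IRF9 and recognizes the interferon-stimulated response element (ISRE) in promoters. Type II interferon (IFN-γ) binds IFNGR1 and IFNGR2 and acts at the GAS element. The induced genes include inhibitors of viral translation and entry, RNA sensors, guanylate-binding proteins and brakes on the signal such as USP18, and adipocytes, like most cells, are able to respond.

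To show the element that much of this set shares, promoters were searched for the ISRE core GAAANNGAAA (TTTCNNTTTC on the other strand) in RefSeq windows of 300 bases, 250 before to 50 after the annotated start, on GRCm38.p6. Of the 45 genes, 35 had a window (Dhx58, Mx1, Mx2, Oas2, Usp18, Parp9, Parp14, Rtp4, Ifi27 and Iigp1 had no entry). The core was found in 16 of the 35 (45.7%), against 3.99% of 27025 genes with windows. The shorter GAS element TTCNNNGAA was found in 12 (34.3%), against 9.55% of all genes, and 5 genes had both. The 16 genes with an ISRE core were Bst2, Gbp2, Gbp3, Gbp7, Ifih1, Ifit1, Ifit3, Ifitm2, Ifitm3, Igtp, Irgm1, Isg15, Oas1a, Oas3, Rsad2 and Stat2. None of the 4 receptors held it. A match of letters is not a measured binding site. The 250 bases before the start are printed for 4 induced genes whose levels turned out to move together, and for the receptor Ifngr1, whose level hardly moved, 5′ to 3′ on the gene's strand with the ISRE core in capitals. Copies that overlap run together.
Isg15 (chr4:156200819-156201068, minus strand, 3 overlapping copies): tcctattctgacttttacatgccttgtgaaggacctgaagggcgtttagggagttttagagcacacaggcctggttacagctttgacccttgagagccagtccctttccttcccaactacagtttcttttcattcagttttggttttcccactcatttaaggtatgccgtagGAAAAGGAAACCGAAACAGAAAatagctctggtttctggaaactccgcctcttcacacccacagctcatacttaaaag
Ifit1 (chr19:34640639-34640888, plus strand, 2 copies): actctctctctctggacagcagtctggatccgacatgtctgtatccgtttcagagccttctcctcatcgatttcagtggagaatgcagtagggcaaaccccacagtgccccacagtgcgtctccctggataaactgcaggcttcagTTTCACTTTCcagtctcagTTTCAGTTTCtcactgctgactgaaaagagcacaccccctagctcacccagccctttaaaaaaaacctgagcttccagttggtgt
Gbp3 (chr3:142559794-142560043, plus strand, 2 overlapping copies): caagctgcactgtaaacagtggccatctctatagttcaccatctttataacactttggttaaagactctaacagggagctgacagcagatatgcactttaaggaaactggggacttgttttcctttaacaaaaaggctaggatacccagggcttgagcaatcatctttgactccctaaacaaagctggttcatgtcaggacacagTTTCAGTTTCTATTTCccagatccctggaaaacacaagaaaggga
Igtp (chr11:58199306-58199555, plus strand, 1 copy): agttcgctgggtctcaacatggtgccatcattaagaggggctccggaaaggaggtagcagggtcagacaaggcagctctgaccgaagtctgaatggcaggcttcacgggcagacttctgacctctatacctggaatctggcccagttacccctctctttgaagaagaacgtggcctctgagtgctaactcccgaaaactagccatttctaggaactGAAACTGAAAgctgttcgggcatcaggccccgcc
Ifngr1 (chr10:19591699-19591948, plus strand, no copy): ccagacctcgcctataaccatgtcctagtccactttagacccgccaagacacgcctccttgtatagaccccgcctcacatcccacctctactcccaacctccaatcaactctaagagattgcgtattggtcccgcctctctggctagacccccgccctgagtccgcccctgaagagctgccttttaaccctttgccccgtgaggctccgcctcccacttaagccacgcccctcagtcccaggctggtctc

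No interferon pathway gene passed an adjusted p of 0.05 between KO and control adipocytes. By edgeR's quasi-likelihood test across all 14270 genes, with Benjamini-Hochberg adjustment, 0 of the 45 were lower in KO adipocytes and 0 were higher, while 1.86% of all genes tested were lower and 0.308% were higher. DESeq2 and limma voom each called 1 gene lower, Ifitm1. At an unadjusted p under 0.05, the edgeR test gave 2 of 45, Ifitm1 and Ifngr2, both on the lower side, a share of 4.44% beside 11.9% of all genes tested. The median log2 fold change of the 45 (KO minus control) was -0.071, with 34 below 0 and 11 above, beside a median of -0.00085 for all genes. This median turned to 0.089 without Control 5 and to 0.032 without KO 1. The 95% interval of the fold change lay within ±1 on the log2 scale (2-fold) for 43 of the 45 genes and within ±0.5 for 23, so for the other 22 these 10 libraries leave room for a difference of that smaller size. The labels do not say whether the libraries of a group came from separate animals, so p-values measure the spread between these libraries.

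The targeted gene was lower in KO adipocytes, though only in part, with a mean of 10.2 CPM in controls and 7.30 in KO libraries. Deletion of the allele itself was not measured. Fam20c was measured at 8.86, 10.3, 11.9, 9.09 and 11.2 CPM (counts scaled to a common library total, with edgeR's TMM factors) in Control 1 to 5 and at 6.65, 7.29, 7.11, 7.70 and 7.74 in KO 1 to 5. No KO library reached the lowest control library, and the log2 fold change was -0.49 (SE 0.093, adjusted p = 0.0137, edgeR). In such bulk cultures, fewer cells of a type and less RNA per cell cannot be told apart.

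**Figure D1:**
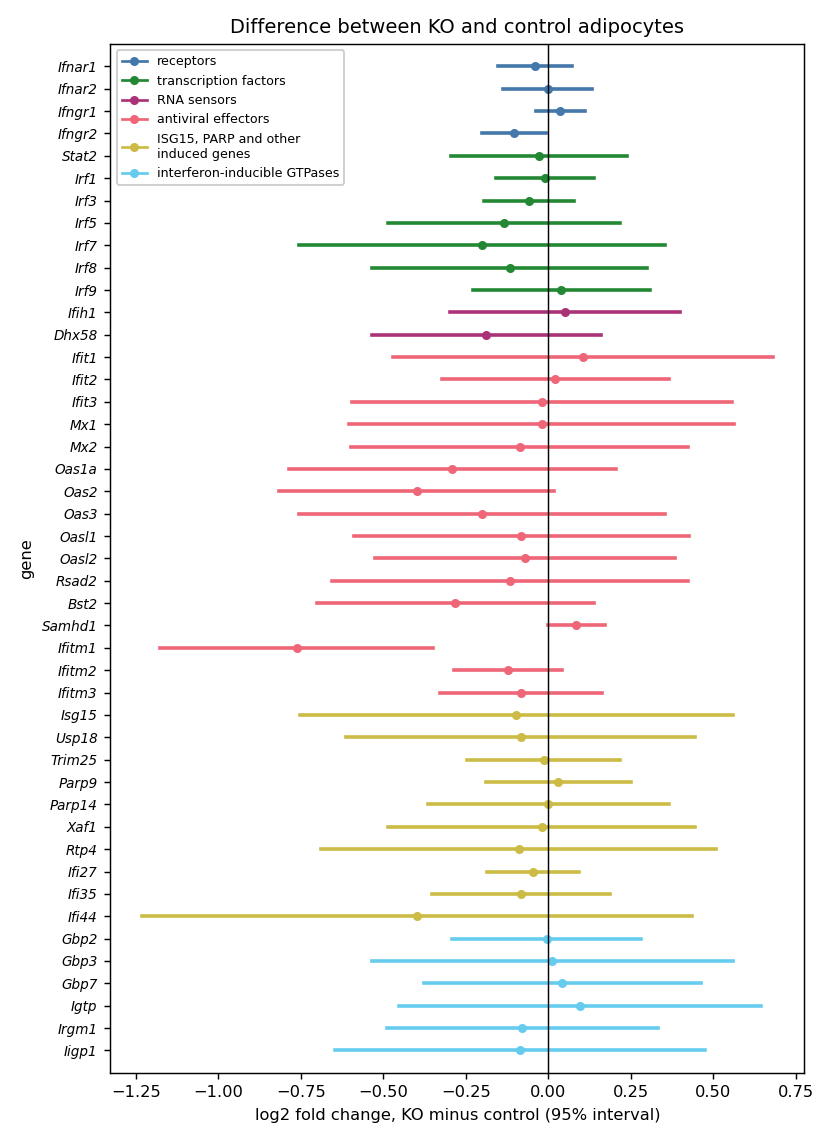
Log2 fold change of each of the 45 genes (KO minus control, x axis) with its 95% interval (lines) from edgeR's quasi-likelihood fit over 5 control and 5 KO libraries, colored by role. Intervals are short for the receptors and long for the induced genes, and apart from Ifitm1 and Ifngr2 every interval reaches 0.

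What stood out was the spread between libraries of the same group. The biological coefficient of variation (BCV, the square root of edgeR's dispersion, read as the relative spread between libraries beyond counting error) had a median of 19.6% over the 45 genes and of 8.27% over all genes tested. The dispersion was above the trend of genes at the same level for 36 of the 45 (80.0%), against 27.3% of all genes. It was more than 3 times the trend for 25 (55.6%), against 5.06%. The median ratio of dispersion to trend was 3.19 over the 45. It was 3.42 over 13 macrophage and myeloid markers, with a median BCV of 17.9% and 12 of 13 above the trend. Over 14 endothelial and 10 adipocyte markers it was 1.20 and 0.521. A spread of this size was thus not particular to the 45. Among the roles, the median ratio of dispersion to trend was 0.508 for the receptors, 2.24 for the transcription factors, 3.40 for the RNA sensors, 4.02 for the antiviral effectors, 5.17 for the ISG15, PARP and other induced genes and 7.09 for the GTPases. These are medians over 2 to 16 genes, and values within a role differed widely. They ran from 0.727 (Irf3) to 11.4 (Irf7) among the transcription factors. Among the antiviral effectors they ran from 0.420 (Samhd1) to 12.1 (Ifit1).

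**Figure D2:**
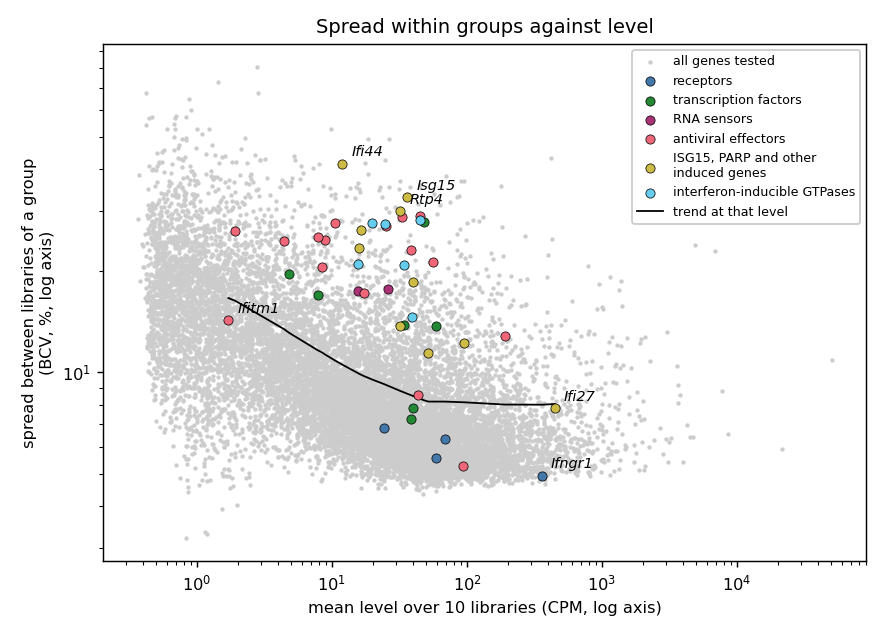
Spread between libraries of a group (BCV in percent, log axis) against mean level (CPM, log axis) for all genes tested (gray) and for the 45 interferon pathway genes colored by role; the line joins the trend values at the levels of those genes. The receptors lie below the line and most induced genes lie well above it, with Ifi44 the highest of the 45 at 41.6%.

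The spread was shared by the genes: they were high and low in the same libraries. Control 5 was the highest of all 10 libraries for 34 of the 45 genes (75.6%), though only for 7.01% of all genes tested, and it was the highest of the 5 control libraries for 37. KO 1 was the lowest of the 10 for 24 genes (53.3%; 10.4% of all genes) and Control 4 for another 13 (28.9%; 14.6%). Within the KO group, KO 5 was the highest library for 32 genes and KO 1 the lowest for 34. The ratio of Control 5 to the median of the other controls had a median of 1.53 over the 45 genes, and the ratio of KO 5 to the median of the other KO libraries a median of 1.37, while the same medians over all genes tested were 0.995 and 0.993. Thus each genotype held a library with high levels and a library with low levels of the same genes.

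**Figure D3:**
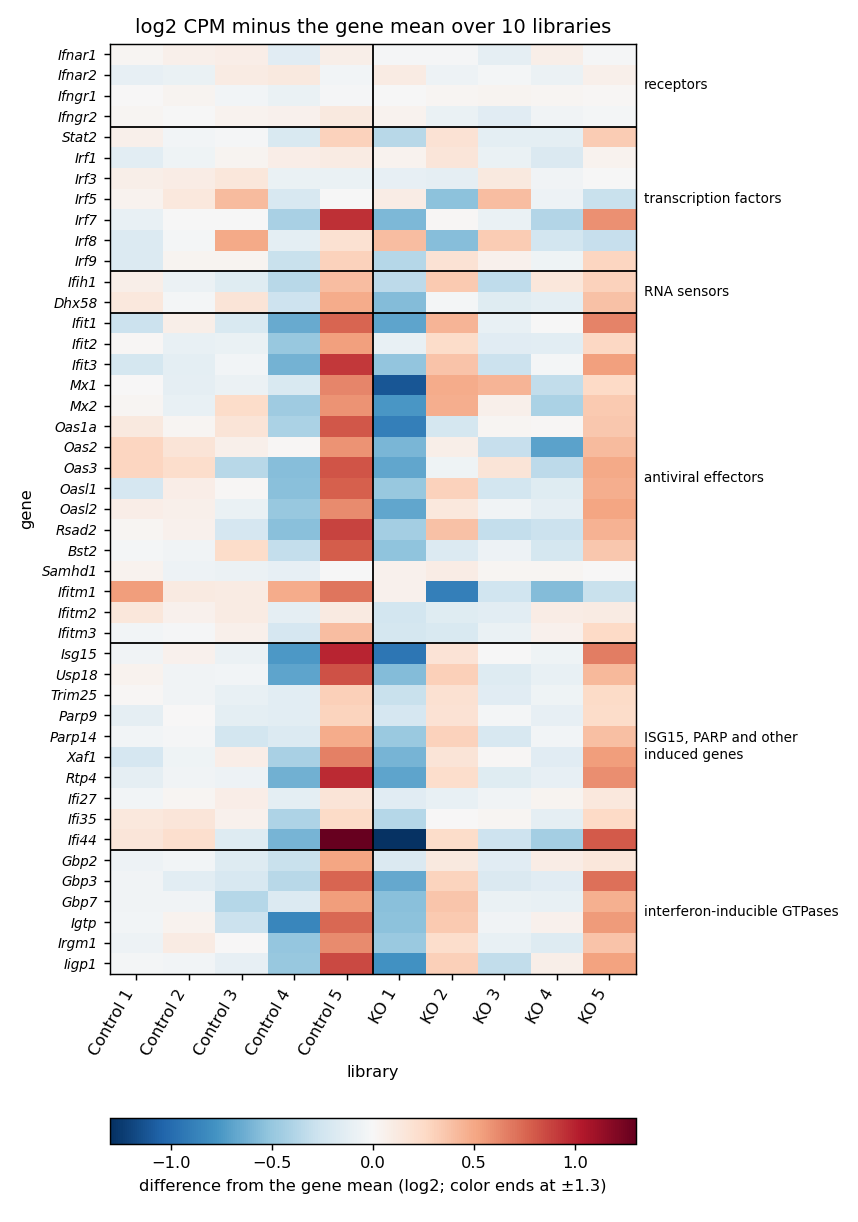
Log2 CPM of each of the 45 genes (rows, grouped by role) in each of the 10 libraries (columns) minus the gene's mean over the 10. Control 5 and KO 5 are red and Control 4 and KO 1 are blue across most induced genes of both genotypes, whereas the receptor rows are almost white.

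To describe the common pattern, each gene's deviations from its group mean were correlated between genes over the 10 libraries. Over the 990 pairs of these genes the median Pearson's r was 0.76, with 61.0% of pairs over 0.5, and over all pairs of genes tested the median was -0.0013. With Control 5 left out, the median was 0.68 and 60.8% of pairs were over 0.5. Genes measured in the same library share its depth and scaling, and 10 libraries give these coefficients little precision. Isg15, which encodes an induced ubiquitin-like protein, was used as the reference: 32 of the other 44 genes (72.7%) had r over 0.8 with it, against 1.35% of all other genes tested. Without Control 5 these shares were 61.4% and 2.76%.

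Among the ligands, interferons themselves were nearly undetected. Of 20 interferon genes listed, Ifnb1 had 0 to 1 count and Ifne 0 to 2 counts per library, and the other 18 had no count in any library. A count of 0 allows up to 3 counts in a library, by counting error only, and protein made by other cells or before harvest was not measured. Most of the genes at 0 were related Ifna genes, and how reads shared between genes were counted was not given in the sources used here.

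The receptors varied least. Ifnar1, the signaling subunit for type I interferon, was at 69.9, 71.7, 72.7, 62.1 and 72.4 CPM in Control 1 to 5 and at 67.8, 67.8, 63.5, 72.3 and 67.8 CPM in KO 1 to 5. Its partner Ifnar2 was at 22.7, 22.9, 26.2, 26.6 and 23.7 in controls and 26.1, 23.3, 23.9, 23.1 and 25.4 in KO libraries. The groups overlapped for both, with log2 fold changes of -0.041 (95% interval -0.15 to 0.071) and -0.0021 (-0.14 to 0.13). Ifngr1, the ligand-binding subunit for IFN-γ, was the third highest of the 45 per length of exon, at 126 CPM per kilobase. It was measured at 360.5, 368, 350.5, 339.7 and 356 CPM in controls and 357, 366, 368, 366 and 363 in KO adipocytes. Its highest library was only 1.08 times its lowest, and the log2 fold change was 0.037 (-0.037 to 0.11). For Ifngr2, its signaling partner, the controls were at 59.5, 58.5, 60.5, 61.0 and 64.0 CPM and the KO libraries at 60.6, 55.0, 52.8, 56.8 and 57.3. KO 1 lay among the controls and the other KO libraries below all of them, and the difference of -0.10 (SE 0.045) did not pass after adjustment (adjusted p = 0.369, edgeR). BCVs of the 4 receptors were 4.93% to 6.84%, all below the trend, and none had r over 0.5 with Isg15 (-0.44 for Ifnar2 to 0.47 for Ifngr1). Ifnar2, Ifnar1 and Ifngr2 are neighbors on chromosome 16 (GRCm38; 91372783 to 91565623 in all), and 315 exonic bases of Ifnar2 are shared with the annotated transcript Gm21970, so that reads could be split between them.

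The 7 transcription factors divided into those that followed Isg15 and those that did not. Irf7, which amplifies the type I response and is itself induced by interferon, was at 43.0, 45.8, 45.7, 34.3 and 88.8 CPM in Control 1 to 5 and 30.5, 46.3, 43.2, 35.3 and 69.4 CPM in KO 1 to 5. Control 5 was 2.00 times the median of the other controls, the groups overlapped, and the log2 fold change was -0.20 (SE 0.26, adjusted p = 0.859, edgeR). Stat2 and Irf9, which encode parts of the complex that binds the ISRE, moved with it at smaller amplitude (BCV 13.7% and 13.8%), and r with Isg15 was 0.95 for Irf7, 0.92 for Stat2 and 0.95 for Irf9. By contrast, Irf3, the constitutive factor that is activated by phosphorylation, had r of 0.10, and Irf1, induced mainly by IFN-γ, had r of 0.11. Both lay below the trend, with BCVs of 7.28% and 7.82%. Fold changes of these factors ranged from -0.20 for Irf7 to 0.040 for Irf9.

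Irf5 and Irf8, factors best known from myeloid cells, had a pattern of their own. Irf8 was at 4.14, 4.61, 6.58, 4.30 and 5.37 CPM in controls and 6.20, 3.21, 5.89, 3.99 and 3.82 in KO libraries, highest in Control 3, KO 1 and KO 3, and Irf5 was highest in Control 3 and KO 3. Their r with Isg15 was -0.26 and -0.19. The summed level of 13 macrophage and myeloid markers was 1251 to 2200 CPM over the 10 libraries. It was 1417 to 2200 in controls and 1251 to 2070 in KO. Lyz2 alone held most of it, at 809 to 1474 CPM, so the sum mainly reflects that gene. The r with the sum was 0.82 for Irf5 and 0.70 for Irf8, the highest values among the 45. Irf8 had a similar r of 0.63 with the summed level of the endothelial markers, and Irf5 one of 0.20. For Isg15 the r with the myeloid sum was -0.53, and the myeloid sum of Control 5 was the lowest of the controls. The lowest r with that sum among the 45 were -0.82 for Gbp7, -0.82 for Parp14 and -0.79 for Parp9. Irf5 shares 411 exonic bases with Tnpo3 on the opposite strand, and whether counting used strand was not given in the sources used here.

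**Figure D4:**
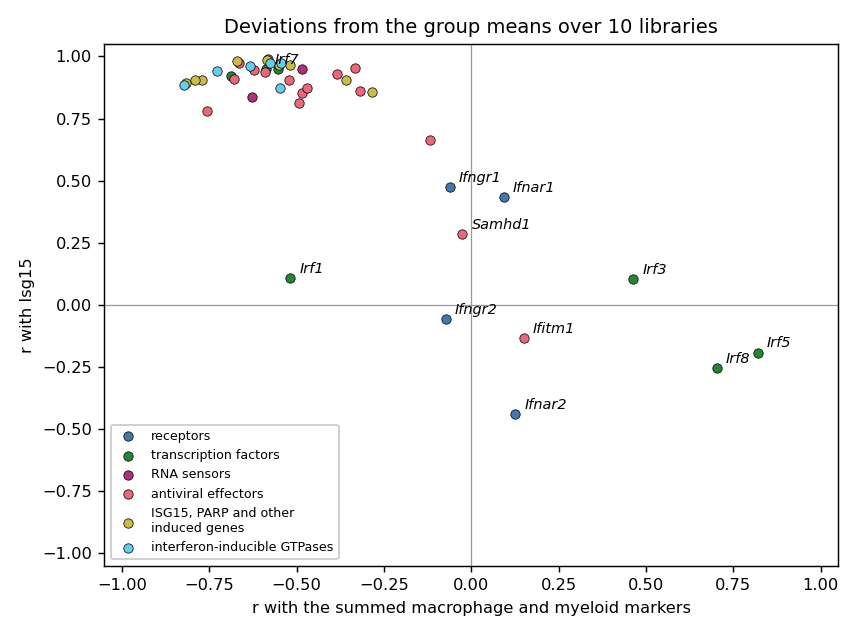
Pearson's r of each gene's deviations from its group means with those of Isg15 (y axis) and with those of the summed macrophage and myeloid markers (x axis), over 10 libraries; points are 44 genes colored by role. Most induced genes sit at the upper left, Irf5 and Irf8 sit alone at the right, and the receptors, Irf1, Irf3, Samhd1 and Ifitm1 lie between.

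**Figure D5:**
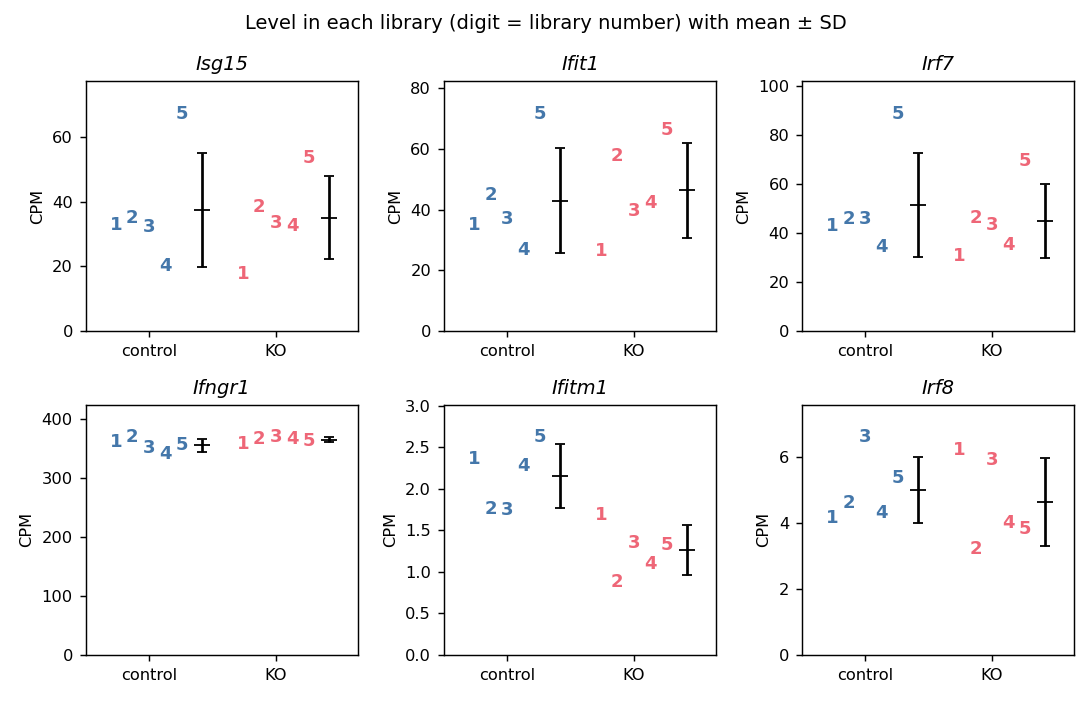
Level in CPM of 6 genes in every library, with digits giving the library number and black marks the group mean ± SD (n = 5 per group). For Isg15, Ifit1 and Irf7 library 5 is the highest of each genotype, Ifngr1 is level, Ifitm1 is lower in every KO library than in every control, and Irf8 is highest in Control 3, KO 1 and KO 3.

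Both RNA sensors followed the shared pattern. Dhx58, which encodes LGP2, a regulator of RNA sensing, was at 16.7, 14.9, 17.1, 12.6 and 21.2 CPM in controls and 10.3, 14.9, 13.6, 13.9 and 19.7 in KO adipocytes. The groups overlapped, and only KO 1 lay below all controls, with a log2 fold change of -0.19 (SE 0.16, adjusted p = 0.743, edgeR). Ifih1, which encodes the double-stranded RNA sensor MDA5, had a log2 fold change of 0.051 (95% interval -0.30 to 0.40). Their r with Isg15 was 0.95 and 0.84.

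Among the antiviral effectors, the Ifit genes, whose proteins bind foreign RNA and block its translation, sit together on chromosome 19 (34550694 to 34650009). Ifit1 was at 34.8, 44.7, 36.9, 26.8 and 71.5 CPM in Control 1 to 5 and 26.2, 57.5, 39.6, 42.1 and 66.1 CPM in KO 1 to 5. Control 4 and KO 1 were the lowest of their genotypes at nearly the same level, Control 5 and KO 5 the highest, and the log2 fold change was 0.11 (SE 0.27, adjusted p = 0.942, edgeR) with a BCV of 29.1% against 8.35% at the trend. Ifit3 had a log2 fold change of -0.018 and Ifit2 of 0.022, with r with Isg15 of 0.94 and 0.85.

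The oligoadenylate synthetase genes Oas1a, Oas2 and Oas3, whose products activate RNase L, had log2 fold changes below 0 that did not pass the test. That of Oas3 was 0.025 without Control 5. Among relatives outside the 45, Oas1b was at -0.12, Oas1g at -0.27 and Oas1c at 0.010. Oas2 was at 9.86, 9.11, 8.47, 8.17 and 12.1 CPM in controls and 5.36, 8.56, 6.59, 4.99 and 10.8 in KO libraries. KO 1, KO 3 and KO 4 lay below every control and KO 2 and KO 5 among them, for a log2 fold change of -0.40 (SE 0.19, adjusted p = 0.451, edgeR). Oas1a was at 9.39, 8.74, 9.64, 6.43 and 15.0 CPM in controls and 4.61, 7.33, 8.73, 8.66 and 10.9 in KO adipocytes, and only KO 1 lay outside the range of the controls (log2 fold change -0.29, SE 0.23, adjusted p = 0.709, edgeR). For Oas3 the controls were at 12.2, 11.8, 7.81, 6.87 and 17.7 CPM and the KO libraries at 6.30, 9.66, 11.3, 7.93 and 14.1. Again only KO 1 lay outside the range of the controls, with a log2 fold change of -0.20 (SE 0.26, adjusted p = 0.860, edgeR). The OAS-like genes Oasl1 and Oasl2 had log2 fold changes of -0.081 and -0.071, and Oasl2 had the highest r with Isg15 of all 45 genes (0.99). Related copies of the Oas family lie in the same locus on chromosome 5, and reads from shared stretches could be divided among them.

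Bst2, which encodes tetherin, an anchor that holds budding virus at the cell surface, was at 53.0, 52.3, 63.5, 43.5 and 93.2 CPM in controls and 37.7, 47.9, 51.5, 45.9 and 68.7 in KO libraries. Only KO 1 lay below all controls and only Control 5 above all KO libraries, and the log2 fold change was -0.28 (SE 0.19, adjusted p = 0.653, edgeR). Rsad2, which encodes viperin, had a log2 fold change of -0.12 and r of 0.91 with Isg15. The dynamin-like GTPase genes Mx1 and Mx2 were low, at 0.508 and 1.23 CPM per kilobase, with log2 fold changes of -0.020 and -0.086, and Mx2 is annotated as a polymorphic pseudogene in the GENCODE annotation. Samhd1, which encodes a nucleotide hydrolase, behaved like the receptors: its BCV was 5.28%, its r with Isg15 0.28 and its log2 fold change 0.085 (95% interval -0.00042 to 0.17).

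The Ifitm genes, whose membrane proteins block virus entry, differed from each other. Ifitm1 was at 2.36, 1.76, 1.74, 2.27 and 2.62 CPM in Control 1 to 5 and 1.69, 0.878, 1.35, 1.10 and 1.32 CPM in KO 1 to 5. Every KO library was below every control, which was the case for 1 of the 45 genes and for 2.66% of all genes tested, and 0 of the 45 were higher in every KO library, against 1.31% of all genes. The log2 fold change was -0.76 (SE 0.19, 95% interval -1.18 to -0.35, adjusted p = 0.0658, edgeR), from 20 to 62 counts per library. It passed the limit with DESeq2 (adjusted p = 0.0256), with limma voom (0.0371), with library totals in place of TMM (0.0488) and without KO 1 (0.0355), and over all alternatives the adjusted p ran from 0.0256 to 0.175, the latter without Control 5. Ifitm1 did not follow Isg15 (r = -0.13), and its BCV of 14.3% was below the trend. The summed level of 14 endothelial markers was 170.1 to 208.2 CPM in controls and 68.5 to 103 CPM in KO adipocytes. By the same test 12 of the 14 were lower, and within groups r of Ifitm1 with that sum was 0.46. The r was 0.70 for Ifnar2, 0.64 for Irf1, 0.63 for Irf8 and 0.46 for Ifngr2, whose log2 fold changes were -0.0021, -0.011, -0.12 and -0.10. The part of endothelial cells in the Ifitm1 difference was not tested.

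Ifitm3, in the same cluster on chromosome 7 as Ifitm1 (chromosome 7, 140967221 to 140969825), was far more abundant, at 281 CPM per kilobase against 1.56. It was measured at 183, 187, 197, 163 and 249 CPM in controls and 161, 164, 178, 196 and 225 in KO libraries. Library 5 was the highest of each genotype, the log2 fold change was -0.083 (SE 0.11, adjusted p = 0.875, edgeR), and r with Isg15 was 0.86. Ifitm2 had a log2 fold change of -0.12 and r of 0.67.

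Isg15 (chromosome 4, 156199424 to 156200818, minus strand) was at 32.7, 35.0, 32.0, 20.1 and 67.2 CPM in Control 1 to 5 and 17.6, 38.3, 33.6, 32.4 and 53.5 CPM in KO 1 to 5. Control 5 held 2.08 times and KO 5 1.62 times the median of the other libraries of its genotype, and the 10 libraries spanned a factor of 3.83. Against that spread (BCV 33.1%, with 8.63% at the trend) the log2 fold change was -0.097 (SE 0.30, 95% interval -0.75 to 0.56, adjusted p = 0.957, edgeR). Usp18, which removes ISG15 from proteins and dampens the receptor, had r of 0.97 with Isg15 and a log2 fold change of -0.084.

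Ifi44, an induced gene of uncertain function, varied most of the 45 relative to its level. It was at 11.7, 12.2, 9.41, 6.91 and 27.1 CPM in controls and 4.32, 12.4, 8.73, 7.74 and 18.3 in KO libraries. The highest library, Control 5, had 6.29 times the level of the lowest, KO 1, and the log2 fold change was -0.40 with an interval of -1.23 to 0.44 (SE 0.38, adjusted p = 0.787, edgeR). Rtp4, which encodes a receptor-transporting protein, was at 28.0, 29.4, 28.8, 19.6 and 59.1 CPM in controls and 18.8, 35.4, 27.2, 28.1 and 45.9 in KO adipocytes. Its order of libraries was close to that of Isg15 (r = 0.98), the groups overlapped, and the log2 fold change was -0.090 (SE 0.28, adjusted p = 0.957, edgeR).

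Ifi27, a gene induced strongly by type I interferon, was the highest of the 45 per length of exon at 305 CPM per kilobase, and it was measured at 434, 455, 472, 409.6 and 502 CPM in controls and 402, 419, 432, 458 and 491 in KO libraries. Its log2 fold change was -0.046 (SE 0.064, adjusted p = 0.878, edgeR) with a BCV of 7.84%, yet its small deviations still followed Isg15 (r = 0.86). Trim25, the ubiquitin ligase of the RIG-I pathway, was at 94.7, 91.3, 88.1, 85.8 and 116 CPM in controls and 76.9, 108, 85.2, 90.4 and 112 in KO adipocytes. The groups overlapped almost fully, and the log2 fold change was -0.014 (SE 0.11, adjusted p = 0.985, edgeR). Parp9 and Parp14, ADP-ribosyltransferase family members, had log2 fold changes of 0.030 and 0.00067, Xaf1, a proapoptotic induced gene, of -0.020, and Ifi35 of -0.083. All 9 genes of this role other than Isg15 had r over 0.8 with it.

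The 6 interferon-inducible GTPases, which act on vacuoles of intracellular pathogens, were the role with the largest excess spread and with a median log2 fold change of 0.0036. Igtp had a log2 fold change of 0.097, Gbp7 of 0.043, Gbp3 of 0.012, Gbp2 of -0.0047, Irgm1 of -0.079 and Iigp1 of -0.085, 3 on each side of 0. All 6 were highest in Control 5, and all 6 had r over 0.8 with Isg15 (0.87 for Gbp2 to 0.97 for Irgm1). Gbp7 shares 637 exonic bases with the pseudogene Gm43802 and Igtp shares 162 with Irgm2, so that part of their reads could have been assigned to either.

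In the promoter windows, the genes with an ISRE core had a higher median r with Isg15 than those without it. The median was 0.92 over 15 genes with the core (Isg15 left out) and 0.47 over 19 without. The median ratio of dispersion to trend was 6.13 and 2.24, and the median log2 fold change -0.053 and -0.058. An r with Isg15 over 0.9 was found for 10 of the 15 with the core and for 8 of the 19 without. The 19 include the receptors, Irf1, Irf3, Irf5, Irf8, Samhd1 and Ifitm1, all with r of 0.47 or less. The rest of the 19 had r of 0.85 (Ifit2) to 0.99 (Oasl2). The lower median without the core thus came from the receptors and the others named with them. The 8 are Irf7, Irf9, Oasl1, Oasl2, Trim25, Xaf1, Ifi35 and Ifi44, whose windows hold no core.

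Beyond the 45 genes, a further list of the pathway covered kinases, STATs, regulators, nucleic acid sensors and other induced genes. Its spread was smaller, with a median ratio of dispersion to trend of 1.57 beside 3.19 for the 45. The median was 0.711 for the kinases, STATs, IRFs and regulators, 0.986 for nucleic acid sensing and 1.95 for the other induced genes. Of 107 symbols listed, 104 were in the table and 76 were tested, and 0 were lower and 0 higher in KO adipocytes by edgeR. At an unadjusted p under 0.05 there were 9 (11.8%), 8 of them lower, beside 11.9% of all genes tested in either direction and 7.46% lower. DESeq2 called 1 lower, Sting1, and limma voom called 0. The 3 with the largest fold change were the GTPases Tgtp2, Gbp4 and Gbp9. Tgtp2 was at 2.20, 2.55, 2.73, 1.84 and 4.86 CPM in controls and 0.893, 2.24, 1.31, 1.28 and 2.60 in KO libraries (log2 fold change -0.78, SE 0.31, adjusted p = 0.318, edgeR). Gbp4 was barely expressed, at 0.892, 0.975, 1.03, 0.822 and 1.23 CPM in controls and 0.595, 0.703, 0.611, 0.412 and 0.662 in KO adipocytes, without overlap (-0.73, SE 0.20, adjusted p = 0.0890, edgeR). Gbp9 was at 4.25, 4.42, 4.51, 3.96 and 7.14 CPM in controls and 3.13, 3.73, 3.01, 2.93 and 4.68 in KO libraries (-0.48, SE 0.18, adjusted p = 0.282, edgeR). Of the rest only Sting1, the adaptor of cytosolic DNA sensing, had groups that did not overlap, at 15.4 ± 2.44 CPM in controls and 11.5 ± 1.43 in KO adipocytes (mean ± SD, n = 5 each; log2 fold change -0.43, adjusted p = 0.0936, edgeR), and it was named after its values were seen. These 2 of 76 genes without overlap on the lower side were 2.63%, beside 2.66% of all genes tested. The part of the endothelial markers in these differences was not tested. In 39 of these 76 genes (51.3%) r with Isg15 was over 0.8, and Control 5 was the highest library for 46 (60.5%).

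No summed marker level was the highest of its genotype in both Control 5 and KO 5, and the myeloid sum was the lowest of its genotype in both. The sum of 10 adipocyte markers was 37008 to 38084 CPM in controls and 38362 to 40577 in KO adipocytes, so every KO library lay above every control. Fabp4 held most of it, at a mean of 20805 CPM in controls and 22552 in KO adipocytes. Of the 10 markers 0 passed the test, and 8 had log2 fold changes above 0. At an unadjusted p under 0.05 (edgeR) there were 4 (40%), beside 11.9% of all genes tested. Adipoq, Fabp4 and Plin1 were abundant in every library, but Lep, on the same list, was low, at 0.562 to 1.60 CPM (11 to 34 counts per library). Of the 13 myeloid markers 0 passed, and of 6 progenitor markers 2 were lower in KO adipocytes, Pdgfra and Cd34. The sum of 9 T, NK and B cell markers was 0.051 to 0.51 CPM, highest in Control 5, and Cd3d and Ms4a1 were among those at 0. Of 4 markers of plasmacytoid dendritic cells, the main makers of type I interferon, Siglech and Klk1 were at 0 in every library, Ccr9 was too low to test, and Tcf4, which many cells express, was lower in KO adipocytes. What set the libraries apart in these genes was not tested.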

How the data were processed

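RNA from 5 control and 5 KO cultures was sequenced as SMARTer mRNA libraries. Per the labels and the study's methods, the authors mapped reads to GRCm38 (mm10) with STAR, counted fragments per Ensembl gene with featureCounts and deposited raw counts; the strand setting was not given in the sources used here. The table's columns matched the sample titles by letter and number, and 0 columns were unmatched. Library totals (18949106 to 26237825) set the counting error, which weighs most on the low genes. No pair of libraries of a group agreed within sampling noise.

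Counts were scaled by TMM, filtered with filterByExpr (minimum count 10) and tested with edgeR 4.0.16 (glmQLFit, glmQLFTest) over all 14270 genes kept, with Benjamini-Hochberg adjustment and a limit of 0.05. SEs were derived from the F statistic, and intervals are 95% intervals. Spread was read from edgeR's tagwise dispersions and from log2 CPM (prior count 2). The fit was tested on simulated data. Alternatives were DESeq2 1.42.0, limma 3.58.1 (voom with quality weights), RLE size factors, library totals, 2 other filters, a replicate block and leaving out each library. Gene positions came from GENCODE on GRCm38, exon overlaps and matches of at least 98% identity over at least 100 bases from its transcripts, and promoters from RefSeq (GRCm38.p6).

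Every one of the 45 genes was named. Values in every library were given for genes past the limit, the 8 with the largest log2 fold change, the 4 receptors, the 4 highest in mean CPM and the 4 with the largest ratio of dispersion to trend, and for the 3 other pathway genes with the largest log2 fold change. The genes, lists and rules were chosen with earlier results of these data known. Some genes of these lists are not reported here.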

Additional observations from a re-analysis of the deposited data

Results flagged for a closer look

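In a group of 5 libraries, a value was listed here when its gap to the nearest other library took up more than 0.71 of the group's range (Dixon's 95% value). Of 100 groups compared (50 genes in 2 genotypes), 13 met this, where chance alone lists about 5, and 11 of the 13 were high values of Control 5. The 50 genes were the 45 with Fam20c, Tgtp2, Gbp4, Gbp9 and Sting1. Tgtp2, Gbp4, Gbp9 and Sting1 were picked by their values in these data, so the chance count does not hold for them. Genes that share a pattern are not independent, so these are not 11 separate events.

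The gap of Control 5 as a share of the range of the controls was 0.827 for Gbp9 (7.14 CPM against 3.96 to 4.51), 0.806 for Mx1 (2.83 CPM against 1.60 to 1.83), 0.793 for Gbp3 (39.9 CPM against 18.4 to 22.9), 0.788 for Irf7 (88.8 CPM against 34.3 to 45.8), 0.752 for Rtp4 (59.0 CPM against 19.6 to 29.4), 0.750 for Iigp1 (77.7 CPM against 30.6 to 42.3), 0.744 for Gbp2 (54.9 CPM against 31.6 to 37.5), 0.741 for Parp14 (54.7 CPM against 33.1 to 38.7), 0.741 for Ifit3 (59.4 CPM against 20.6 to 30.6), 0.738 for Ifi44 (27.1 CPM against 6.91 to 12.2) and 0.712 for Gbp7 (22.1 CPM against 11.8 to 14.8). Ifnar1 was low in Control 4, at 62.1 CPM against 69.9 to 72.7 in the other libraries of its genotype, with a gap of 0.736 of the range. Sting1 was low in KO 2, at 8.96 CPM against 11.9 to 12.6 in the other libraries of its genotype, with a gap of 0.802 of the range. What set Control 5 apart was not tested. The fold changes without it are given with the other settings.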

How the results depend on the processing

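Of 765 recomputed fold changes of the 45 genes, 661 kept their direction and their side of the limit, 4 newly passed it, all for Ifitm1, and 100 turned direction, none of them past the limit in any setting. The count of genes lower in KO adipocytes was 1 (Ifitm1) with DESeq2, with library totals alone, with limma voom and without KO 1, and 0 in every other setting, so that leaving out libraries gave 0 to 1. Of the other pathway genes, the count lower was 1 with DESeq2 and with no filter on low counts (Sting1 in both) and without Control 4 (Ifi205), again 0 to 1 over the libraries left out. The counts of higher genes were 0 in every setting. The median log2 fold change of the 45 ran from -0.16 to 0.089 over the libraries left out. Fam20c kept its direction and its call in all settings, from -0.54 to -0.43.

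Direction turned for 31 genes when libraries were left out, and over all alternatives their log2 fold change had these ranges. Among the receptors it ran from -0.027 to 0.034 for Ifnar2. Among the transcription factors it ran from -0.12 to 0.052 for Stat2, -0.046 to 0.032 for Irf1, -0.41 to 0.089 for Irf7, -0.24 to 0.0025 for Irf8 and -0.025 to 0.13 for Irf9. Among the RNA sensors it ran from -0.025 to 0.17 for Ifih1. Among the antiviral effectors it ran from -0.055 to 0.37 for Ifit1, -0.078 to 0.19 for Ifit2, -0.16 to 0.30 for Ifit3, -0.14 to 0.16 for Mx1, -0.23 to 0.068 for Mx2, -0.36 to 0.025 for Oas3, -0.22 to 0.16 for Oasl1, -0.23 to 0.10 for Oasl2, -0.25 to 0.16 for Rsad2 and -0.16 to 0.019 for Ifitm3. Among the ISG15, PARP and other induced genes it ran from -0.30 to 0.23 for Isg15, -0.22 to 0.18 for Usp18, -0.081 to 0.069 for Trim25, -0.027 to 0.12 for Parp9, -0.10 to 0.14 for Parp14, -0.17 to 0.18 for Xaf1, -0.27 to 0.23 for Rtp4 and -0.70 to 0.027 for Ifi44. Among the GTPases it ran from -0.070 to 0.15 for Gbp2, -0.20 to 0.26 for Gbp3, -0.074 to 0.21 for Gbp7, -0.055 to 0.36 for Igtp, -0.19 to 0.095 for Irgm1 and -0.24 to 0.18 for Iigp1. Leaving out Control 5 turned 20 of the 45 genes and leaving out KO 1 turned 14. Among the other settings, limma voom turned Ifnar2 (at 0.026), Irf1 (at 0.019), Ifit3 (at 0.060), Trim25 (at 0.010), Xaf1 (at 0.023) and Gbp2 (at 0.0092), library totals alone Ifit2 (at -0.0045), Parp14 (at -0.024) and Gbp3 (at -0.014), DESeq2 Ifnar2 (at 0.0017), RLE size factors Ifnar2 (at 0.0018), no filter Ifnar2 (at 0.00039) and the strict filter Parp14 (at -0.0021).

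Both groups carry replicate numbers 1 to 5. With the replicate number as a block, 0 of the 45 genes and 0 of the other pathway genes passed in either direction, Fam20c was at -0.49 (adjusted p = 0.0355, edgeR), the median log2 fold change of the 45 was -0.0475, and Ifit3 (at 0.029), Parp14 (at -0.0039) and Gbp2 (at 0.016) turned direction. Deviations of same-numbered libraries correlated with r of -0.25 to 0.26, and 1 of 5 control libraries correlated best with its own number, so the numbers were not read as pairs.

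Counts of 20 to 62 per library limit Ifitm1, and the spread between libraries limits most induced genes: for 22 of the 45 the interval reached beyond ±0.5 on the log2 scale.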

Other observations

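Of the pathway genes outside the 45, those most like Isg15 over the 10 libraries were Nmi, Irgm2, Zbp1, Trim30a, Sp100 and Parp12, with r of 0.98, 0.97, 0.97, 0.96, 0.96 and 0.96 for the deviations from the group means. Ddx58, which encodes the RNA sensor RIG-I, had r of 0.94. By list, the median r with Isg15 was 0.84 over 53 other interferon-induced genes, 0.18 over 12 kinases, STATs, IRFs and regulators, and 0.15 over 11 genes of nucleic acid sensing. Within the last list Ticam1 had r of -0.74, Mavs -0.23, Tbk1 0.11 and Myd88 0.73, and among the Janus kinases Jak1 had -0.40, Jak2 0.42 and Tyk2 0.44. These names were chosen after their values were seen, and the coefficients are descriptions over 10 libraries that share the scaling.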
